A study of Homo sapiens with 30 samples.

Results

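Long noncoding RNA genes with LINC or antisense (-AS) symbols were examined in 4 RWPE1 lines. A gene was taken when its symbol was LINC followed by digits, or ended in -AS with or without a digit, and its FPKM (fragments counted for a gene, scaled by transcript length and library size) reached 1 in some line. Of 26255 genes in the expression table, 1874 had such a symbol and 329 of these passed the minimum, 91 LINC genes and 238 antisense genes. The other 1545 stayed below it, 613 of them at 0 in all 4 lines. Members were thus selected on their FPKM in these lines, so their levels and ratios are given as a description.

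RWPE1 is an immortalized line of normal prostate epithelial cells, and each derivative was transduced with 2 retroviruses and selected with hygromycin and puromycin. RWPE1-Vector carried the empty pQCXIH and pBabe-puro, RWPE1-mAKT carried pQCXIH and myristoylated AKT in pBabe-puro, RWPE1-ERG carried ERG in pQCXIH with pBabe-puro, and RWPE1-ERG+mAKT carried both genes. The labels give pQCXIH for ERG in the sample descriptions and pLHCX in the protocol. ERG is the ETS transcription factor activated by gene fusion in prostate cancer, and mAKT is a constitutively active form of the kinase AKT. The study asked how ERG and AKT signaling act together. RNA was polyA-selected and 3 libraries were made of each line, but the deposited FPKM is 1 pooled value a line, so no spread between libraries, no test and no depth could be given, and every ratio is a difference between 2 pooled values. Nothing in the labels says that the 3 libraries came from separate cultures. Peak lists of these lines were used too, with H3K27me3 peaks of RWPE1-ERG S96E, RWPE1 cells with an ERG whose serine at that position is replaced by glutamate, and ERG peaks of VCaP, a prostate cancer line with an ERG fusion.

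Long noncoding RNAs are transcribed by RNA polymerase II, mostly spliced and polyadenylated like messenger RNA, and do not encode a long protein. Some act on chromatin or bind proteins and microRNAs, while for others the act of transcription matters more than the RNA. Antisense genes lie on the strand opposite a coding gene, either inside it or starting next to its promoter and running away from it. Many are restricted to a cell type, and several are raised or lost in prostate and other carcinomas.

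ERG itself, the gene introduced, was at an FPKM of 0.264 in RWPE1-Vector and 0.435 in RWPE1-mAKT against 358 in RWPE1-ERG and 328 in RWPE1-ERG+mAKT. Basal keratin genes were high in all 4 lines, with KRT5 between 1170 and 3642 and KRT14 between 700 and 2936, both lowest in RWPE1-ERG, and the simple-epithelial keratin KRT8 ranged from 622 to 1769 and was highest in that line. KLK3 was listed at 0 in all 4 lines, PECAM1, CDH5 and PTPRC were at most 0.210, and COL1A1 lay between 1.78 and 2.18. The part of this keratin difference in the ratios below was not tested.

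The members were expressed at low levels. The median of their highest FPKM was 2.78 (lower quartile 1.68, upper quartile 5.57), against 12.2 over all 12670 genes that passed the same minimum, called all expressed genes here. LINC and antisense genes were alike in this, with medians of 2.84 and 2.77. In 110 members, 33.4%, the highest FPKM was below 2, which held for 9.42% of all expressed genes, and 43 members reached 10. An FPKM of at least 1 in every line was seen for 251 members, 76.3%, against 90.9% of all expressed genes. Just inside the minimum were KLHL7-AS1 with a highest FPKM of 1.0004, ZFAT-AS1 with 1.014 and NR2F2-AS1 with 1.017. Just outside it were LINC01535 with 0.9996, NDUFA6-AS1 with 0.9900 and LINC00888 with 0.9861.

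The most abundant member was LRRC75A-AS1, now named SNHG29, a host gene of small nucleolar RNAs. Its FPKM was 1078 in RWPE1-Vector, 1288 in RWPE1-mAKT, 1357 in RWPE1-ERG and 962 in RWPE1-ERG+mAKT, while the coding gene LRRC75A across from it stayed between 0.414 and 1.85. PCNA-AS1 followed with 525, 556, 469 and 464 in the same order, and PCNA, the sliding clamp of DNA replication, had 155, 156, 129 and 154. HIF1A-AS2 reached 89.9 in RWPE1-ERG and 60.5 to 75.4 in the others, beside HIF1A, the hypoxia-inducible transcription factor, at 78.7 to 98.5. FBXO22-AS1 lay between 86.8 and 96.5. The protocol in the labels names random-hexamer priming and no step that marks the strand. If the libraries were unstranded, as that reads, then where an antisense gene and its sense gene share exon bases their reads cannot be told apart. The levels of PCNA-AS1, HIF1A-AS2 and FBXO22-AS1, which had no position in the annotation used, are uncertain for that reason.

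Among LINC genes the highest was LINC00657, known as NORAD, an RNA that binds Pumilio proteins and guards chromosome stability. It had an FPKM of 132 in RWPE1-Vector, 129 in RWPE1-mAKT, 127 in RWPE1-ERG and 110 in RWPE1-ERG+mAKT. The next were LINC00493 (66.9 to 76.8), LINC01420 (47.7 to 63.8), LINC00998 (39.6 to 48.9), LINC00152 (32.8 to 68.4) and LINC01468 (33.8 to 49.5). Of these 6, 3 are protein-coding in the present annotation: LINC00493 encodes the small mitochondrial protein SMIM26, LINC01420 encodes NBDY, a microprotein of P-bodies, and LINC00998 encodes the small membrane protein SMIM30. Over the 311 members that matched the annotation, 294 were typed as long noncoding RNA, 11 as protein-coding and 6 as pseudogene or another type. The 11 coding ones had a median mean FPKM of 17.4, from 1.33 to 73.1, against 2.22 for the 294, from 0.439 to 1171. They include LINC00116 (MTLN), MMP24-AS1 (MMP24OS), NCBP2-AS2 (NCBP2AS2), TOPORS-AS1 (SMIM27) and LINC00094 (BRD3OS), so the symbol in the table did not always mark a noncoding gene.

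Ratios between lines were taken as log2 of (FPKM + 1), which shrinks the ratio of a gene near the minimum, and 2-fold means a log2 ratio of at least 1 either way. Few members passed it in any pair of lines. The share of all 12670 expressed genes that passed is given with each count, and since the members are lower in level than most genes, more of them sit where the added 1 holds a ratio down.

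**Figure D1:**
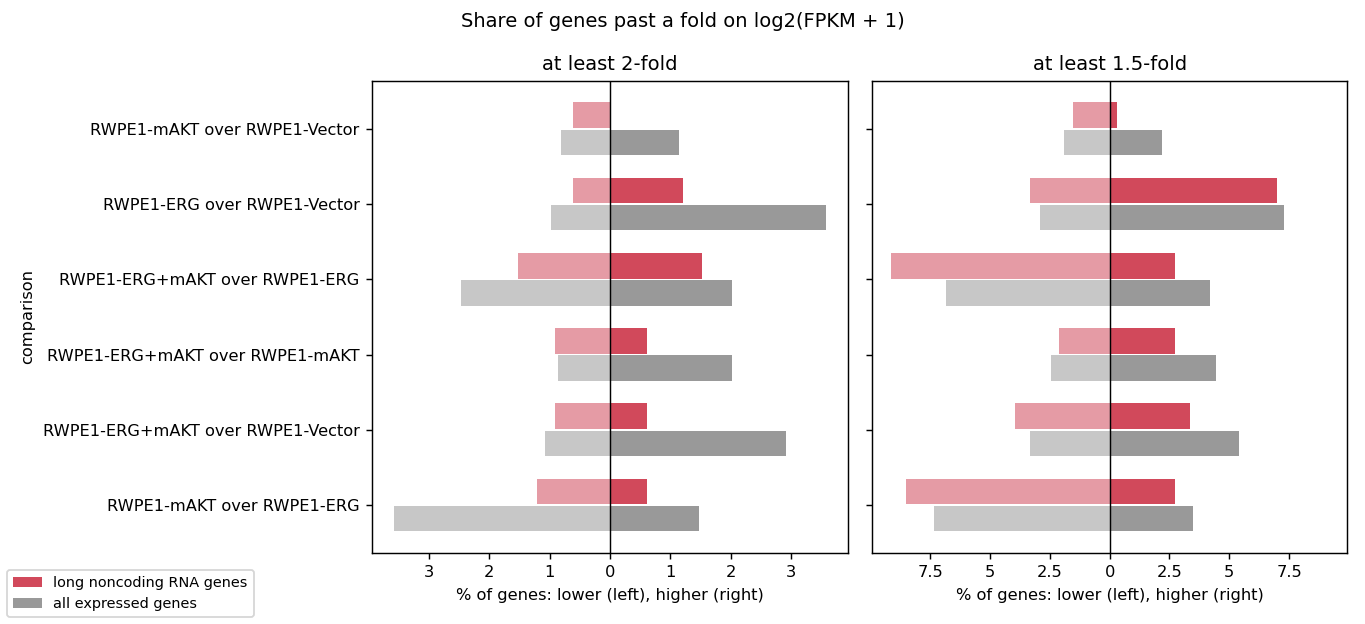
Percent of genes at least 2-fold (left panel) or 1.5-fold (right panel) higher (bars to the right of 0) or lower (paler bars to the left) in each pair of lines, for the 329 long noncoding RNA genes and all 12670 expressed genes. At 2-fold the share of higher members is below that of all genes in each pair, and at 1.5-fold the RWPE1-ERG over RWPE1-Vector shares are 6.99% and 7.27%.

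With mAKT alone, no member was 2-fold higher than in RWPE1-Vector (background 1.14% of all genes) and 2 were 2-fold lower (background 0.813%). Both had an FPKM under 2 to begin with, and HHIP-AS1, opposite HHIP, which binds and sequesters hedgehog ligands, had an FPKM of 1.82 in RWPE1-Vector, 0.255 in RWPE1-mAKT, 0.812 in RWPE1-ERG and 0.113 in RWPE1-ERG+mAKT. ZNF667-AS1 had 1.69, 0.239, 0.559 and 0.113. Their log2 ratios of RWPE1-mAKT over RWPE1-Vector were -1.17 and -1.12, and these 2 were the only members at least 1.5-fold higher in RWPE1-Vector than in every other line, 0.608% against 0.505% of all genes. HHIP itself had 1.02, 0.163, 0.611 and was listed at 0 in RWPE1-ERG+mAKT, the same order of lines, and 34.03% of exon bases of HHIP-AS1 lie opposite coding exons. LINC01133 (-0.95), KANSL1-AS1 (-0.70) and LINC00957 (-0.61) came next. At 1.5-fold these were the 5 lower members (background 1.89%), and 1 member was higher (background 2.19%).

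The higher member was LINC01503, with a log2 ratio of 0.67. Its FPKM was 29.3 in RWPE1-Vector, 47.2 in RWPE1-mAKT, 24.8 in RWPE1-ERG and 51.4 in RWPE1-ERG+mAKT, so that both lines with mAKT were above both without it. TMEM161B-AS1 (0.56), LINC00460 (0.50), LINC01605 (0.50) and LINC01468 (0.50) came after it, none of them past 1.5-fold. The median log2 ratio over all members was 0.018, and that over all expressed genes 0.017.

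With ERG alone, 4 members were 2-fold higher than in RWPE1-Vector (background 3.58%) and 2 were 2-fold lower (background 0.971%). At 1.5-fold, 23 members were higher (background 7.27%) and 11 lower (background 2.92%), and the median log2 ratio was 0.010 against -0.008 over all genes. In 12 members, 3.65%, the level in RWPE1-ERG was at least 1.5-fold above each of the other lines, and 3.43% of all expressed genes had this pattern. Beside the genes described below they were LINC00273, SERTAD4-AS1, TM4SF19-AS1 and TRIM31-AS1. RWPE1-mAKT stood above the others in this way for 0 members (0.442% of all genes) and RWPE1-ERG+mAKT for 4, 1.22% (1.64% of all genes), which were LINC00319, LINC00520, STX17-AS1 and UNC5B-AS1.

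LINC01186 had the largest ratio, 1.28, with an FPKM of 1.63 in RWPE1-Vector, 2.43 in RWPE1-mAKT, 5.41 in RWPE1-ERG and 3.36 in RWPE1-ERG+mAKT. LINC00704 is also called MANCR, the mitotically associated long noncoding RNA, and was at 0.918, 0.903, 3.42 and 1.07. RWPE1-ERG alone was high for this gene, and the other 3 lines lay close together (log2 ratio 1.20 over RWPE1-Vector and -1.09 for RWPE1-ERG+mAKT over RWPE1-ERG). LINC00152, also known as CYTOR and raised in many carcinomas, had the same shape at a far higher level, with 37.9, 39.5, 68.4 and 32.8 and log2 ratios of 0.84 and -1.04. A near-identical copy of LINC00152 exists as MIR4435-2HG, which had 50.9, 50.1, 75.7 and 40.6, and how reads were divided between these 2 genes is not known. LINC01057 (7.06, 7.67, 13.5 and 5.98) and LINC00452 (0.355, 0.194, 1.45 and 0.0678) were likewise highest in RWPE1-ERG and past 2-fold lower in RWPE1-ERG+mAKT. LINC01057 is annotated as SLC44A3-AS1, a transcribed pseudogene.

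**Figure D2:**
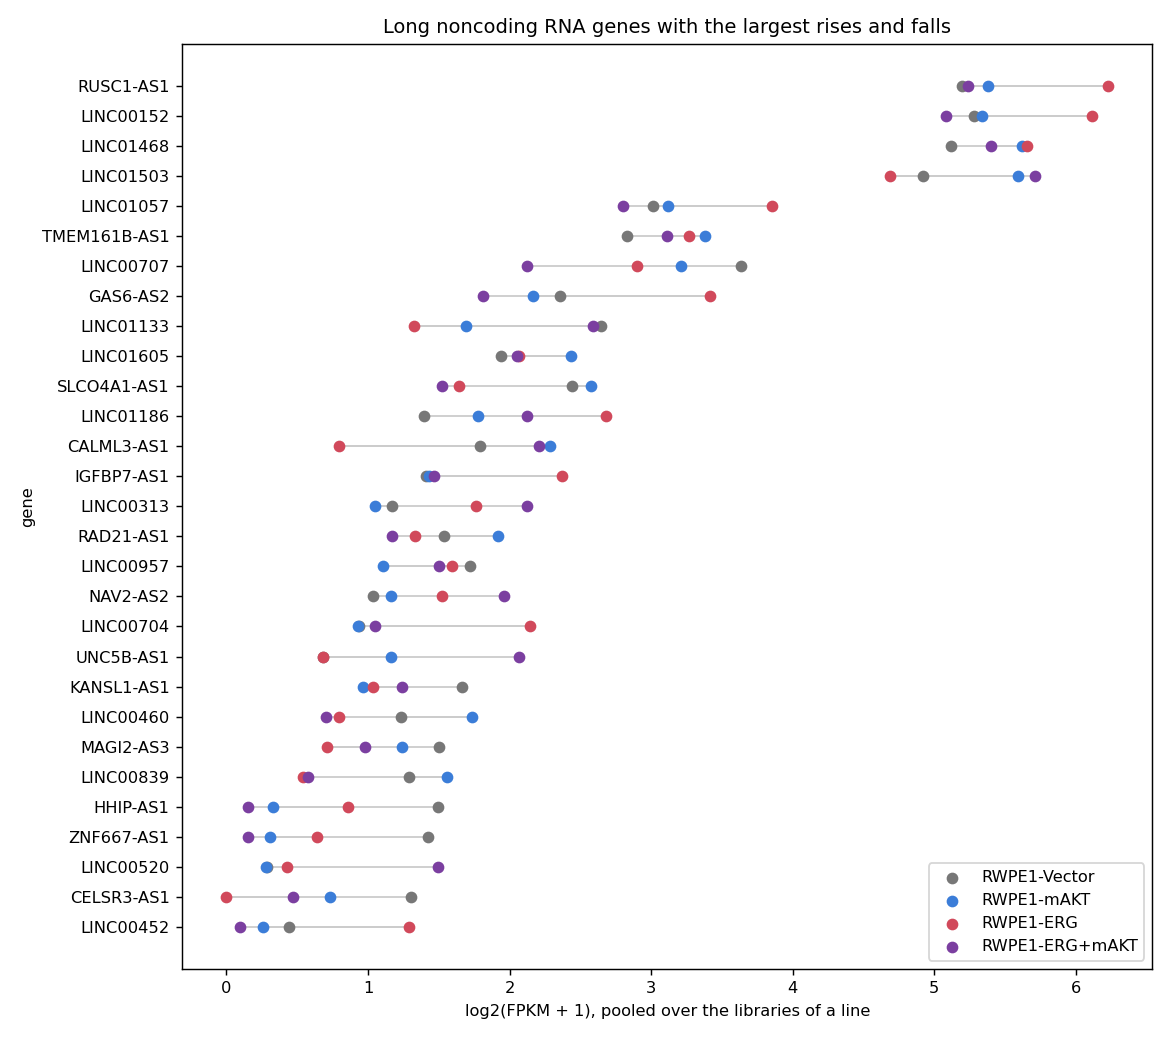
Log2(FPKM + 1) in the 4 lines for the members with the 5 highest and 5 lowest ratios in any of 4 comparisons, 1 pooled value a line and ordered by mean level. RWPE1-ERG lies far to the right of the other lines for RUSC1-AS1, LINC00152, LINC01057, GAS6-AS2 and LINC00704, while both mAKT lines lie to the right for LINC01503. Where fewer than 4 points show, values coincide.

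RUSC1-AS1 differed between lines where its sense gene did not. Its FPKM was 35.7 in RWPE1-Vector, 40.6 in RWPE1-mAKT, 74.1 in RWPE1-ERG and 36.7 in RWPE1-ERG+mAKT, a log2 ratio of 1.03 for RWPE1-ERG over RWPE1-Vector and -0.99 for RWPE1-ERG+mAKT over RWPE1-ERG. RUSC1, which encodes a signaling adaptor, was between 29.0 and 31.0 in all 4 lines. In RUSC1-AS1, 31.1% of exon bases lie opposite coding exons, where reads of unstranded libraries cannot be told apart.

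Of the members lower with ERG, LINC01133 had the largest ratio, -1.32, with an FPKM of 5.26 in RWPE1-Vector, 2.23 in RWPE1-mAKT, 1.51 in RWPE1-ERG and 5.01 in RWPE1-ERG+mAKT. It was low in each line with 1 introduced gene and at the level of RWPE1-Vector with both, so its ratio of RWPE1-ERG+mAKT over RWPE1-ERG was 1.26 and over RWPE1-mAKT 0.90. CELSR3-AS1 was at 1.46 in RWPE1-Vector and listed at 0 in RWPE1-ERG, the only 0 in the 329 members, so no fold is given, with 0.664 in RWPE1-mAKT and 0.385 in RWPE1-ERG+mAKT. CALML3-AS1 (-0.99), SLCO4A1-AS1 (-0.80) and MAGI2-AS3 (-0.79) followed.

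Adding mAKT to ERG gave the most members past 2-fold, 5 higher (background 2.02%) and 5 lower (background 2.47%) in RWPE1-ERG+mAKT than in RWPE1-ERG. At 1.5-fold there were 9 higher (background 4.21%) and 30 lower (background 6.85%). The 5 lower ones were GAS6-AS2 (-1.61), LINC00452 (-1.20), LINC00704 (-1.09), LINC01057 (-1.05) and LINC00152 (-1.04), all of them among the 12 genes highest in RWPE1-ERG, a line that both ratios contain. The 5 higher ones were CALML3-AS1 (1.41), UNC5B-AS1 (1.38), LINC01133 (1.26), LINC00520 (1.07) and LINC01503 (1.02). The median log2 ratio was -0.036 over the members and -0.045 over all genes.

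LINC00520 was below the minimum in 3 lines, with an FPKM of 0.219 in RWPE1-Vector, 0.215 in RWPE1-mAKT and 0.346 in RWPE1-ERG, and 1.82 in RWPE1-ERG+mAKT. UNC5B-AS1 had 0.605, 1.24, 0.605 and 3.18 in the same order. Both were therefore highest where the 2 genes were expressed together. Against RWPE1-mAKT, 2 members were 2-fold higher in RWPE1-ERG+mAKT (background 2.03%) and 3 were 2-fold lower (background 0.868%). The higher ones were LINC00520 (1.21) and LINC00313 (1.08), with UNC5B-AS1 (0.90), LINC01133 (0.90) and NAV2-AS2 (0.80) after them, and the median log2 ratio of -0.032 compares with -0.069 over all genes. At 1.5-fold, 9 were higher (background 4.43%) and 7 lower (background 2.45%).

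LINC00313 had an FPKM of 1.25 in RWPE1-Vector, 1.07 in RWPE1-mAKT, 2.40 in RWPE1-ERG and 3.36 in RWPE1-ERG+mAKT, and NAV2-AS2, opposite the neuron navigator gene NAV2, had 1.05, 1.24, 1.88 and 2.89. In both, the 2 lines with ERG were above the 2 without. In NAV2-AS2, 50.6% of exon bases lie opposite coding exons, where reads of unstranded libraries cannot be told apart. NAV2 was also at least 1.5-fold higher in RWPE1-ERG+mAKT than in RWPE1-mAKT. LINC00319, which lies beside LINC00313 and was picked after its values were seen, had 1.04, 1.03, 0.790 and 2.21, so only RWPE1-ERG+mAKT was high. LINC00313 spans chr21:44881840-44899414 on the minus strand and LINC00319 chr21:44866481-44873782 on the plus strand (hg19).

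The lower ones against RWPE1-mAKT were LINC00707 (-1.09), SLCO4A1-AS1 (-1.05) and LINC00460 (-1.03), with LINC00839 (-0.98) and RAD21-AS1 (-0.75) next. LINC00707 was at 11.4 in RWPE1-Vector, 8.28 in RWPE1-mAKT, 6.46 in RWPE1-ERG and 3.36 in RWPE1-ERG+mAKT, and was lowest with both genes by at least 1.5-fold. LINC00460 had 1.36, 2.33, 0.734 and 0.631, and LINC00839 had 1.45, 1.94, 0.458 and 0.493. Both lines with ERG were thus low for these 2 genes, whether mAKT was present or not.

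In the remaining pairs, RWPE1-ERG+mAKT over RWPE1-Vector had 2 members 2-fold higher (background 2.92%), LINC00520 and UNC5B-AS1, and 3 lower (background 1.07%), HHIP-AS1, ZNF667-AS1 and LINC00707. RWPE1-mAKT over RWPE1-ERG had 2 higher (background 1.47%), CALML3-AS1 and LINC00839, and 4 lower (background 3.58%), AFAP1-AS1, GAS6-AS2, LINC00452 and LINC00704. At 1.5-fold, RWPE1-ERG+mAKT over RWPE1-Vector had 11 higher (background 5.41%) and 13 lower (background 3.34%), and RWPE1-mAKT over RWPE1-ERG had 9 higher (background 3.5%) and 28 lower (background 7.34%). AFAP1-AS1, opposite the actin filament-associated gene AFAP1, was at 2.71 in RWPE1-Vector, 1.93 in RWPE1-mAKT, 5.98 in RWPE1-ERG and 3.86 in RWPE1-ERG+mAKT. In AFAP1-AS1, 42.2% of exon bases lie opposite coding exons, so the same limit on reads holds. All 6 pairs reuse the same 4 pooled values.

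A list of 43 long noncoding RNA genes with other kinds of names was also examined, of which 33 were expressed. They were picked by name and are not all such genes. These 33 were far more abundant than the members, with a median highest FPKM of 48.6, which holds for this list alone. Against RWPE1-Vector, RMRP and UCA1 were 2-fold higher in RWPE1-ERG (background 3.58%) and 0 of the 33 lower (background 0.971%). In RWPE1-mAKT, H19 was higher (background 1.14%) and RMRP lower (background 0.813%). Such counts in 33 genes are too small to set against the background. UCA1, first described in urothelial carcinoma, had an FPKM of 18.0 in RWPE1-Vector, 30.2 in RWPE1-mAKT, 56.7 in RWPE1-ERG and 48.0 in RWPE1-ERG+mAKT. H19, the imprinted gene next to IGF2, had 20.3, 72.9, 18.9 and 37.6. Members and this list thus both had single genes that stood high with ERG, and no member had a ratio upward with mAKT as large as that of H19 (1.80).

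The sense gene of an antisense member, the gene of the same symbol without the ending, was in the table for 235 of 238. Positions on opposite strands could be compared for 224 of them: 84 were head-to-head with starts at most 1 kb apart (median distance 294.5 bases), 139 had overlapping spans with starts farther apart, and 1 was apart. Sense genes were the more abundant, with a median mean FPKM of 11.1 against 2.35, yet in 59 pairs the antisense gene was higher. Examples are THAP9-AS1 (23.8 to 30.2) beside THAP9 (1.42 to 2.01), and FGD5-AS1 (18.6 to 27.03) beside FGD5, listed at 0 in all lines. Across the 235 pairs the mean levels were hardly related (Spearman's rho 0.20).

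The ratios of antisense and sense genes went together in part. Pearson's r across the 235 pairs was 0.39 for RWPE1-mAKT over RWPE1-Vector, 0.57 for RWPE1-ERG over RWPE1-Vector, 0.61 for RWPE1-ERG+mAKT over RWPE1-ERG and 0.39 for RWPE1-ERG+mAKT over RWPE1-mAKT. The points are genes from the same pooled libraries, not replicates, and share reads where exons overlap. In the 51 pairs whose antisense gene has no exon bases opposite annotated coding exons, r was 0.45, 0.49, 0.67 and 0.45 in the same order. In the 68 pairs with at least 20% of exon bases opposite coding exons it was 0.35, 0.62, 0.54 and 0.55. Part of the relation rests on a few pairs: without the 10 pairs with the largest antisense ratio, r was 0.22, 0.47, 0.49 and 0.28.

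**Figure D3:**
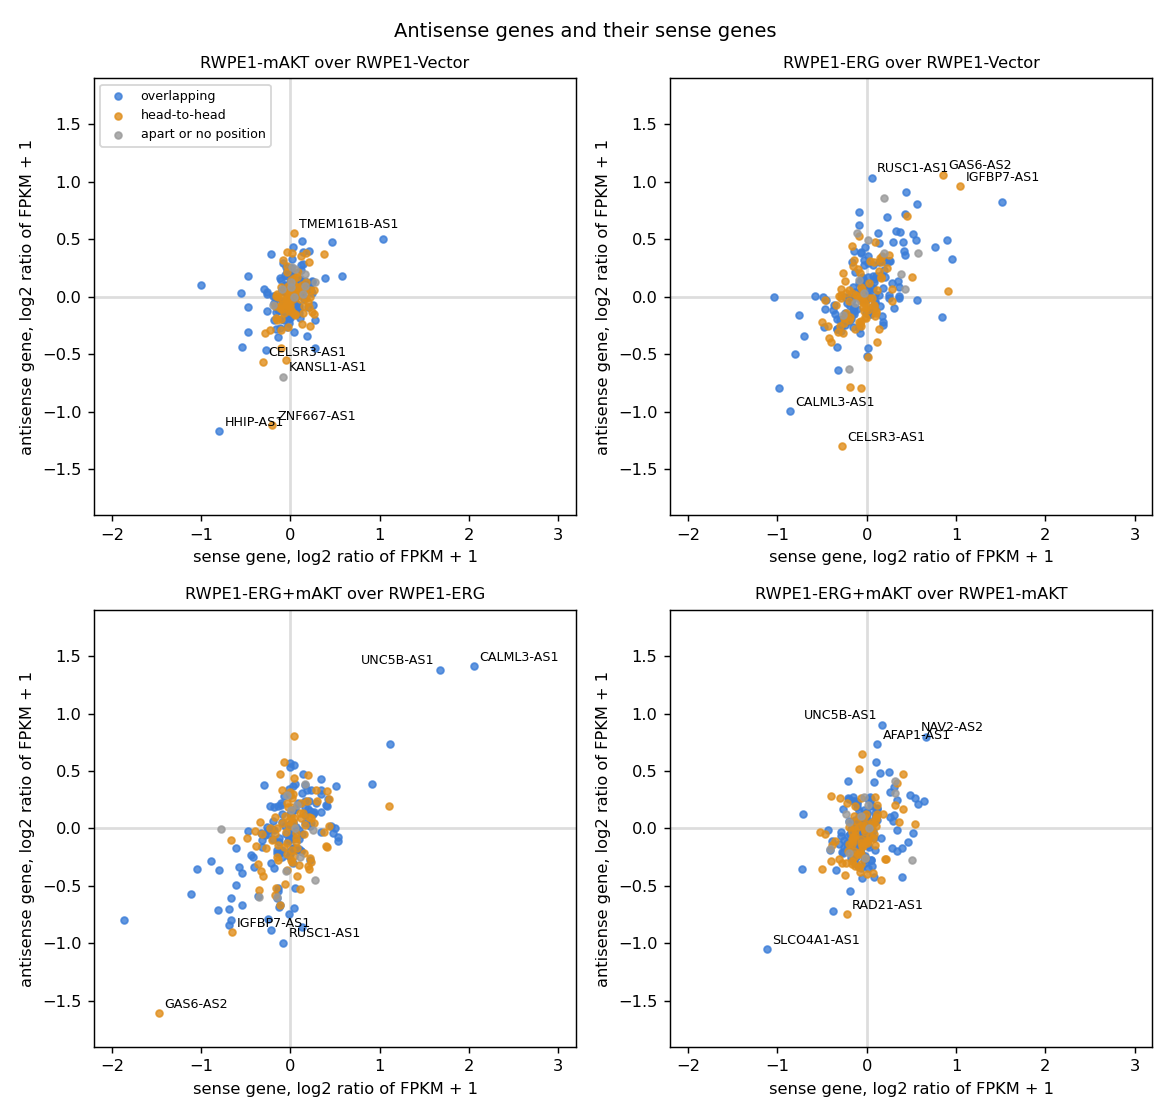
Log2 ratio of FPKM + 1 of 235 antisense genes (y axis) against that of their sense genes (x axis) in 4 comparisons, coloured by position, with the 5 largest antisense ratios named. The cloud is widest for RWPE1-ERG+mAKT over RWPE1-ERG (r 0.61), where GAS6-AS2 is at the lower left and UNC5B-AS1 and CALML3-AS1 at the upper right, while RUSC1-AS1 lies on the vertical line.

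Of the 22 antisense genes at least 1.5-fold lower in RWPE1-ERG+mAKT than in RWPE1-ERG, 8 had a sense gene that was also 1.5-fold lower, among them PINK1-AS, VIM-AS1 and GNAS-AS1, while 14 had one within 1.5-fold and 0 had one that was 1.5-fold higher. Of the 12 at least 1.5-fold higher in RWPE1-ERG than in RWPE1-Vector, these counts were 3, 9 and 0. Over all 202 expressed sense genes, 7.92% were 1.5-fold lower and 2.48% higher in the first of these comparisons, and 3.96% were higher and 2.97% lower in the second, so a count of 0 in the opposite direction is near this background. Of the 8 pairs lower together, PINK1-AS, HHIP-AS1, VIM-AS1 and GNAS-AS1 have 42.92%, 34.03%, 30.86% and 30.81% of exon bases opposite coding exons. Reads of unstranded libraries cannot be told apart there, and the part of such reads in the shared fall was not tested. The share was 4.096% for FAM83A-AS1, 2.51% for IGFBP7-AS1, 0.695% for NR2F1-AS1 and 0% for GAS6-AS2.

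GAS6-AS2 starts 36 bases from GAS6, which encodes the secreted ligand of the TYRO3, AXL and MERTK receptors, and none of its exon bases lie opposite coding exons. Its FPKM was 4.13 in RWPE1-Vector, 3.50 in RWPE1-mAKT, 9.70 in RWPE1-ERG and 2.51 in RWPE1-ERG+mAKT, and GAS6 had 70.2, 65.1, 128 and 45.6. Both genes were highest in RWPE1-ERG and lowest in RWPE1-ERG+mAKT, with log2 ratios between these 2 lines of -1.61 and -1.47. IGFBP7-AS1 is head-to-head with IGFBP7, a secreted protein that binds insulin-like growth factors. It had 1.65, 1.69, 4.16 and 1.77 where IGFBP7 had 135, 122, 281 and 178, so RWPE1-ERG was again high for both.

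CALML3-AS1 overlaps the span of CALML3, a calmodulin-like gene of epithelial cells, and has 3.85% of its exon bases opposite coding exons. Its FPKM was 2.46 in RWPE1-Vector, 3.88 in RWPE1-mAKT, 0.736 in RWPE1-ERG and 3.62 in RWPE1-ERG+mAKT, and CALML3 had 44.6, 92.7, 24.2 and 103. RWPE1-ERG was lowest and the lines with mAKT were highest in both. UNC5B-AS1 shares no exon bases with coding exons and lies inside UNC5B, a netrin receptor with 4.803, 6.99, 1.84 and 8.02. The sense gene was lower in RWPE1-ERG than in RWPE1-Vector (log2 ratio -1.03), whereas UNC5B-AS1 was 0.605 in both.

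SLCO4A1-AS1 had an FPKM of 4.42 in RWPE1-Vector, 4.96 in RWPE1-mAKT, 2.12 in RWPE1-ERG and 1.88 in RWPE1-ERG+mAKT, and the organic anion transporter gene SLCO4A1 had 28.4, 28.6, 13.9 and 12.6. Both lines with ERG were low for both genes, and 22.6% of exon bases of SLCO4A1-AS1 lie opposite coding exons. LOXL1-AS1 (0.810, 0.819, 2.204 and 1.16) followed LOXL1, a lysyl oxidase that cross-links elastin (1.56, 1.66, 6.29 and 2.36), and NR2F1-AS1 (0.397, 0.386, 1.45 and 0.368) followed the nuclear receptor gene NR2F1 (0.411, 0.257, 1.08 and 0.289). These 2 pairs, highest in RWPE1-ERG, were picked after their values were seen.

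**Figure D4:**
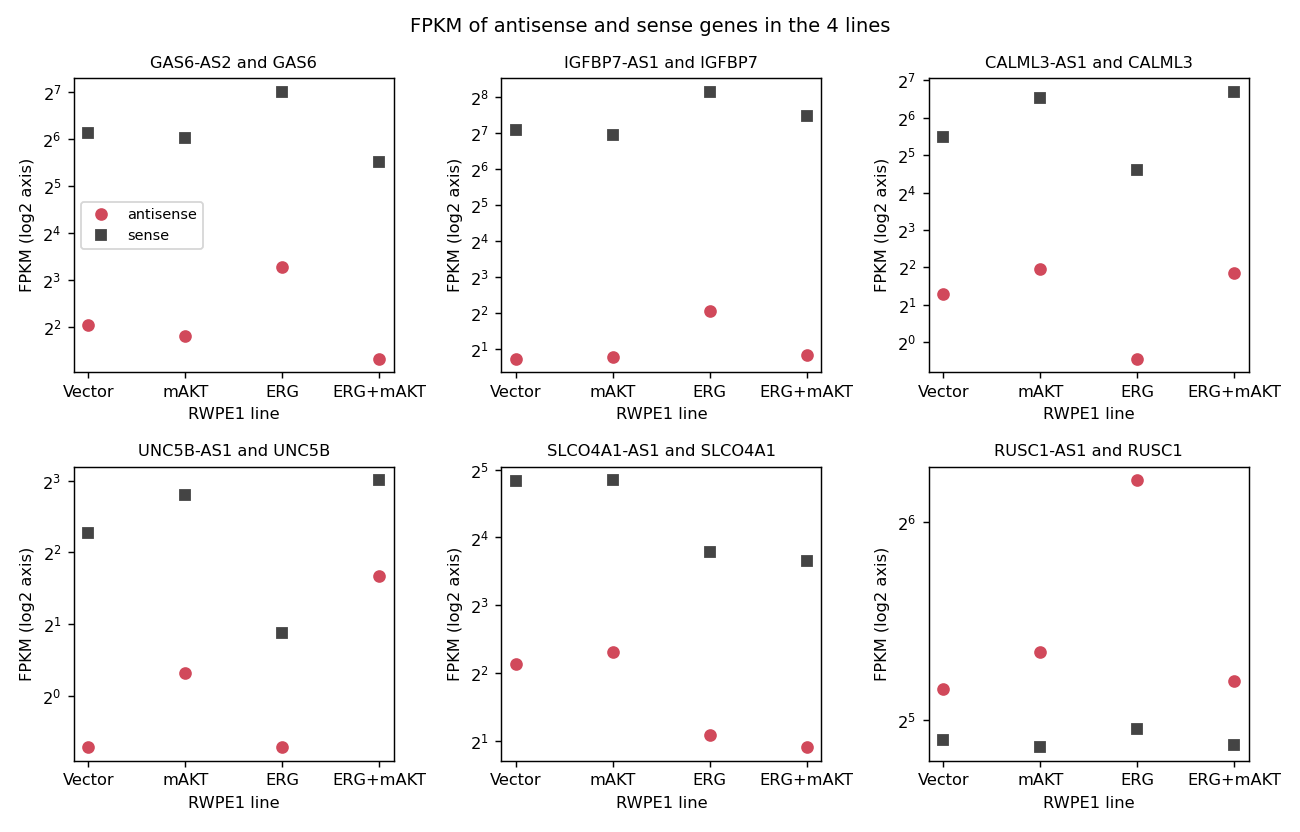
FPKM (log2 axis, a range of its own in each panel) of 6 antisense genes (circles) and their sense genes (squares) in the 4 lines, 1 pooled value each. SLCO4A1-AS1 and SLCO4A1 are both low in the 2 lines with ERG, GAS6-AS2 and GAS6 are both highest in RWPE1-ERG, and RUSC1-AS1 is high in RWPE1-ERG while RUSC1 stays level.

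Promoter windows from RefSeq (GRCh38.p14, 250 bases before the start to 50 after it) were found for 253 of the 329 members. The ETS motif CCGGAAGT, on either strand, was in 16 of them, 6.32%, and in 4.11% of all 34943 windows in the table. Those windows, unlike the background of the ratios, also include genes not expressed in these lines. LINC00526 and LINC00667, both with a CCGGAAGT match, have windows that overlap. The AP-1 motif TGANTCA, on either strand, was in 19 members, 7.51%, against 7.72% of all windows. Member windows had a median GC content of 64.3% and all windows 58.7%. The 5 windows printed here belong to LINC00704 and LINC00152, high in RWPE1-ERG, and UNC5B-AS1, high in RWPE1-ERG+mAKT, all with a TGANTCA match, to GAS6-AS2, which starts beside GAS6, and to LINC00657, the most abundant LINC gene, with a CCGGAAGT match. The motifs share no overlap. Capitals mark a match to either motif, and the coordinates, unlike all others given here, are GRCh38, and the RefSeq start may differ from the start used for peaks. LINC00704 (as MANCR) is chr10:4678021-4678320, minus strand, LINC00152 (as CYTOR) is chr2:87455177-87455476, plus strand, UNC5B-AS1 is chr10:71218179-71218478, minus strand, GAS6-AS2 (as GAS6-DT) is chr13:113863927-113864226, plus strand, and LINC00657 (as NORAD) is chr20:36050911-36051210, minus strand.
LINC00704: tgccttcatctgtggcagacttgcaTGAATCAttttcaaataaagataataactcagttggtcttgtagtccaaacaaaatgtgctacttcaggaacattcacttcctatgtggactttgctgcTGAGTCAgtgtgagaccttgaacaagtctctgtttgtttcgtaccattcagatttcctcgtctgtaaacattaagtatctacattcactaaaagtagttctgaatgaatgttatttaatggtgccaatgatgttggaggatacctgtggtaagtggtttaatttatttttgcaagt
LINC00152: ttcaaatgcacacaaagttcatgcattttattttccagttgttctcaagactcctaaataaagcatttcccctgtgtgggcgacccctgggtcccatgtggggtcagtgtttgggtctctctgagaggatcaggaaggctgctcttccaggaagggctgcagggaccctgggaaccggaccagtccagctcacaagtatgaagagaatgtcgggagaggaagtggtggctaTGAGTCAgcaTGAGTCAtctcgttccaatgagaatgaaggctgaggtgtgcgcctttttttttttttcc
UNC5B-AS1: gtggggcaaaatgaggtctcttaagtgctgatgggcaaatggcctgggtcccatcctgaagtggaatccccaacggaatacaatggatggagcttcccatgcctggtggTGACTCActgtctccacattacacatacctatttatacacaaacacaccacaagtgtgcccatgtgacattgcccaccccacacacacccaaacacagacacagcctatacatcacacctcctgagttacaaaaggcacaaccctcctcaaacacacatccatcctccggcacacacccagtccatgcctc
GAS6-AS2: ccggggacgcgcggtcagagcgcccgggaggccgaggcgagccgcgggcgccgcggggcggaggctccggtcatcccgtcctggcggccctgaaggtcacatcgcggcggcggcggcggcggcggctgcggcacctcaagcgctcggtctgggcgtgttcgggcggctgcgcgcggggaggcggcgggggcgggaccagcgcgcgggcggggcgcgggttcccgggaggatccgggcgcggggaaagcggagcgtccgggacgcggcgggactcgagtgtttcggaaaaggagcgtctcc
LINC00657: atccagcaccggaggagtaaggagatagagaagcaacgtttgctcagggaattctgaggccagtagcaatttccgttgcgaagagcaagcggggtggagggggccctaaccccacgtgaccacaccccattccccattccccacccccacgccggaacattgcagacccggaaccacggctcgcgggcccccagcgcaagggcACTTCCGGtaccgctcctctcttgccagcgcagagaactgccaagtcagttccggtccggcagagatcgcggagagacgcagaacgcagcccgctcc

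LINC00704 and LINC00152 each hold 2 TGANTCA matches and UNC5B-AS1 has 1. These windows are chosen examples and do not stand for the members that share a pattern. Among other members highest in RWPE1-ERG by at least 1.5-fold, SERTAD4-AS1 had 1 TGANTCA match. RUSC1-AS1, IGFBP7-AS1, TM4SF19-AS1, TRIM31-AS1, NR2F1-AS1 and LINC00273 had 0. LINC00460, low in both lines with ERG, had 2. The GAS6-AS2 window has neither motif, 79.7% GC and 56 CG dinucleotides, against 36.7% GC and 2 CG dinucleotides in that of LINC00704. A match describes letters in the window and is not a binding site.

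Peak lists were independent of how the members were chosen, and each came from 1 library, so their shares carry counting error only. ATAC-seq, which marks open chromatin, had a peak within 1 kb of the start for 76.8% of 311 member starts in RWPE1-ERG (95% Wilson interval 71.9 to 81.2%), 76.8% in RWPE1-mAKT (71.9 to 81.2%) and 74.6% in RWPE1-ERG+mAKT (69.5 to 79.1%). Over all 12147 starts of expressed genes the shares were 85.9%, 85.5% and 82.0%, each above the interval of the members. In RWPE1-ERG the median mean FPKM was 2.51 for members with a peak and 1.88 without, and 11.3 and 7.08 for all genes, and the part of level in the shares was not tested. A peak was present in all 3 lists at 224 member starts, 72.0%, and in none at 64, 20.6%, against 80.9% and 12.4% of all starts.

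**Figure D5:**
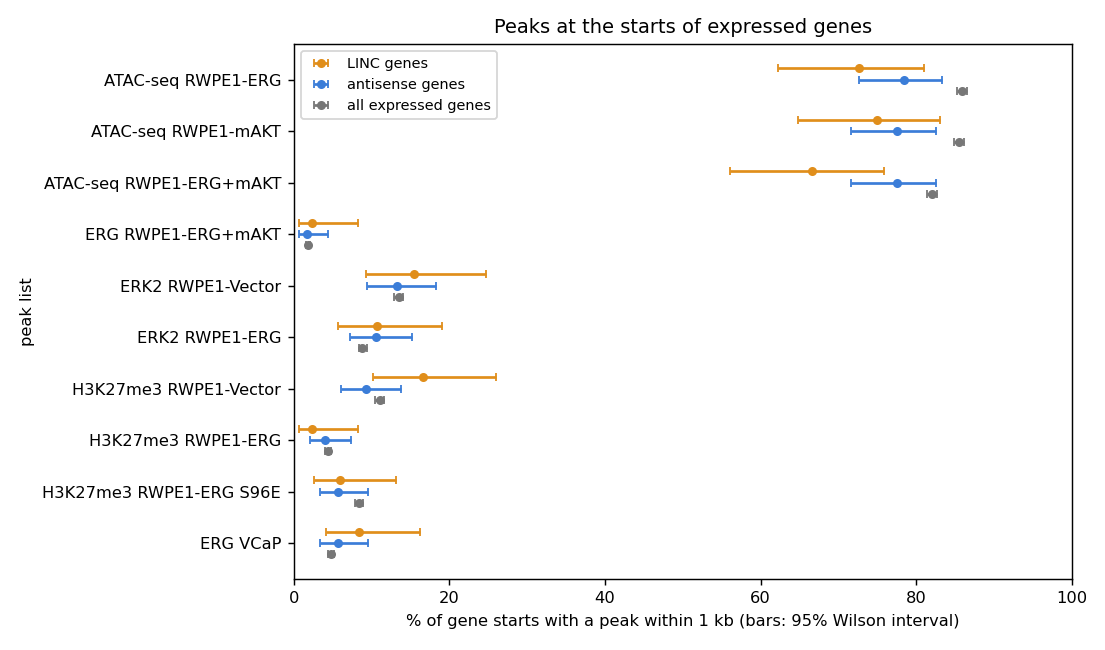
Percent of gene starts with a peak within 1 kb in each peak list, with 95% Wilson intervals, for 84 LINC genes, 227 antisense genes and 12147 expressed genes. The ATAC-seq intervals lie below the share of all genes in all 3 lists for LINC genes and in RWPE1-ERG and RWPE1-mAKT for antisense genes, and the intervals of LINC and antisense genes for the ERG and ERK2 lists include it.

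At the starts of the genes named above, an ATAC-seq peak and a high level did not always go together. LINC00704 had a peak over its start in all 3 lists, with a fold enrichment of 11.9 in RWPE1-ERG, 8.24 in RWPE1-mAKT and 7.14 in RWPE1-ERG+mAKT, and was also highest in RWPE1-ERG. For LINC01186 these were 5.46, 3.37 and 4.14. The RWPE1-ERG list also had the highest fold enrichment at TMEM161B-AS1 and RAD21-AS1, whose FPKM was highest in RWPE1-mAKT. The RWPE1-mAKT list was highest at LINC00707 and LINC00657, and the RWPE1-ERG+mAKT list at SBF2-AS1 and TPT1-AS1. A highest value in the RWPE1-ERG list was thus not limited to genes high in that line. The part of a general difference between lists in these enrichments was not tested. LINC01133 had a peak in RWPE1-ERG alone (fold enrichment 4.23), the line where its FPKM was lowest. UNC5B-AS1 had one in RWPE1-ERG (5.24) and RWPE1-mAKT (2.92) and none in RWPE1-ERG+mAKT, where its FPKM was highest. LINC00839 had one in RWPE1-mAKT (6.15) and RWPE1-ERG+mAKT (4.22) and none in RWPE1-ERG. Its FPKM was nearly the same in RWPE1-ERG (0.458) and RWPE1-ERG+mAKT (0.493). The RWPE1-ERG+mAKT list is the shortest, with 42081 peaks against 63354 and 57999, and the part of list length in these absences was not tested.

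ERG peaks in RWPE1-ERG+mAKT lay within 1 kb of 6 member starts, 1.93% (95% Wilson interval 0.887 to 4.14%), against 1.80% of all starts. The 6 were ADNP-AS1, LINC01128, LINC01604, SBF2-AS1, TMEM5-AS1 and TPT1-AS1, and none of these peaks had a q-value of at most 0.01. ADNP-AS1 and TPT1-AS1 also had an ERG peak within 1 kb in VCaP, where the share was 6.43% of members (4.20 to 9.72%) and 4.82% of all starts. TPT1-AS1, head-to-head with the translationally controlled tumor protein gene TPT1, had an FPKM of 2.22 in RWPE1-Vector, 2.36 in RWPE1-mAKT, 2.76 in RWPE1-ERG and 2.04 in RWPE1-ERG+mAKT. ADNP-AS1 had 0.834, 1.13, 1.02 and 1.15. Within 5 kb, 21 members had an ERG peak, 6.75% of starts against 6.08% of all, and of these 21 only LINC01503, in RWPE1-ERG+mAKT over RWPE1-ERG, passed 2-fold in any of the 6 pairs, a number too small to set against the background.

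ERK2 peaks were found within 1 kb of 13.8% of member starts in RWPE1-Vector (10.4 to 18.1%) and 10.6% in RWPE1-ERG (7.66 to 14.5%), against 13.5% and 8.84% of all starts. H3K27me3, the repressive mark of Polycomb, had a peak at 11.3% in RWPE1-Vector (8.20 to 15.2%), 3.54% in RWPE1-ERG (1.99 to 6.22%) and 5.79% in RWPE1-ERG S96E (3.69 to 8.96%). The shares over all starts were 11.1%, 4.36% and 8.41%, so each lay inside the interval of the members. These lists are permissive: 29 of 492265 H3K27me3 peaks in RWPE1-Vector, 39 of 228233 in RWPE1-ERG and 3413 of 252784 in RWPE1-ERG S96E had a q-value of at most 0.01, and the shares follow the order of the list lengths. MAGI2-AS3, which was lower in RWPE1-ERG (FPKM 1.83 in RWPE1-Vector and 0.638 in RWPE1-ERG), had H3K27me3 peaks in all 3 lists. The one in RWPE1-ERG S96E, a line without RNA-seq here, lay over its start with a fold enrichment of 4.00 and a -log10 q of 3.28. Those in RWPE1-Vector and RWPE1-ERG lay 803 and 790 bases from the start. Their fold enrichments were 1.70 and 2.11, each with a -log10 q of 0.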

How the data were processed

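The RNA-seq comprised 12 libraries, 3 for each of 4 RWPE1 lines. Per the study's methods, polyA RNA was reverse transcribed, reads were aligned with TopHat2 and genes were compared with Cuffdiff. The deposited table gives FPKM for each pair of lines, which the authors pooled over the 3 libraries of a line, and 0 columns of single libraries. The authors' own columns of fold changes, test statistics, p-values and q-values were not used. Depth is not given in the sources used here, so no floor or interval was set on FPKM.

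Peaks were called by the authors with MACS2 on hg19, 1 library a list, and DNA for ChIP was pooled from 3 experiments. The deposited lists give the fold enrichment, a ratio over the local background, and the q-value as -log10. Of the peak lists, 10 were used and 2 were not, because labels and file contents disagreed. ATAC-seq of RWPE1-Vector was not analysed here.

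Log2 ratios were taken of FPKM + 1. Members, gene lists and tests were chosen with earlier results of these data known. Genes were matched to GENCODE release 44 on GRCh37 by symbol or RefSeq synonym (311 of 329 members, 68 under another symbol, and 12147 of 12670 expressed genes). A start had a peak when 1 base of it lay within 1 kb. Named genes were the 6 LINC and 6 antisense genes with the highest mean FPKM, the 5 highest and 5 lowest ratios in 4 comparisons, antisense genes opposed to their sense gene past 2-fold, members with an ERG peak within 1 kb, and the 3 genes nearest the minimum on each side. One gene that this rule names is not reported here. The scripts were tested on simulated data with Python 3.11.15, pandas 2.3.3 and scipy 1.17.1. Alternatives were other pseudocounts, minimums, folds, a median-centred ratio, and other windows and q-values for peaks.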

Additional observations from a re-analysis of the deposited data

Results flagged for a closer look

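LINC01133 was picked out because the effect of each introduced gene had opposite directions with and without the other. The log2 ratio of RWPE1-ERG over RWPE1-Vector was -1.32 and that of RWPE1-ERG+mAKT over RWPE1-mAKT was 0.90. The log2 ratio of RWPE1-mAKT over RWPE1-Vector was -0.95 and that of RWPE1-ERG+mAKT over RWPE1-ERG was 1.26. No other member passed 1.5-fold in opposite directions in either pair of contrasts. The difference was not tested, since each line has 1 pooled value, and the 4 ratios come from the same 4 values.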

How the results depend on the processing

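No paired analysis was possible because the replicate numbers in the labels belong to libraries whose FPKM is given only as 1 pooled value a line, and leaving out a library was not possible for the same reason. The order of the pairs is that of the report, from RWPE1-mAKT over RWPE1-Vector to RWPE1-mAKT over RWPE1-ERG. With a pseudocount of 0.1 the counts of the 329 members past 2-fold were 0 higher with 6 lower, 16 higher with 9 lower, 11 higher with 17 lower, 8 higher with 5 lower, 8 higher with 10 lower and 5 higher with 18 lower, and over all expressed genes 1.63% higher with 1.25% lower, 4.95% higher with 1.88% lower, 2.98% higher with 3.65% lower, 3% higher with 1.35% lower, 3.96% higher with 1.85% lower and 2.48% higher with 4.93% lower. With one of 0.5 the counts were 0 higher with 3 lower, 13 higher with 6 lower, 8 higher with 12 lower, 4 higher with 4 lower, 5 higher with 5 lower and 5 higher with 11 lower, and over all expressed genes 1.33% higher with 0.963% lower, 4.17% higher with 1.4% lower, 2.44% higher with 3.02% lower, 2.38% higher with 1.07% lower, 3.35% higher with 1.38% lower and 1.93% higher with 4.14% lower. At 1.5-fold the counts were 1 higher with 5 lower, 23 higher with 11 lower, 9 higher with 30 lower, 9 higher with 7 lower, 11 higher with 13 lower and 9 higher with 28 lower, with the shares over all genes given in the report. At 3-fold the counts were 0 higher with 0 lower, 0 higher with 0 lower, 0 higher with 1 lower, 0 higher with 0 lower, 0 higher with 0 lower and 0 higher with 0 lower, and over all expressed genes 0.726% higher with 0.426% lower, 1.63% higher with 0.481% lower, 1.1% higher with 0.781% lower, 0.923% higher with 0.481% lower, 1.48% higher with 0.442% lower and 0.805% higher with 1.87% lower. When a minimum FPKM of 5 was set the counts were 0 higher with 0 lower, 3 higher with 1 lower, 2 higher with 3 lower, 0 higher with 1 lower, 0 higher with 1 lower and 0 higher with 2 lower, and over all expressed genes 1.27% higher with 0.88% lower, 4.27% higher with 1.03% lower, 1.91% higher with 2.92% lower, 2.3% higher with 0.955% lower, 3.12% higher with 1.06% lower and 1.51% higher with 4.21% lower. With ratios less the median of all genes the counts were 0 higher with 2 lower, 4 higher with 2 lower, 5 higher with 4 lower, 2 higher with 1 lower, 3 higher with 3 lower and 1 higher with 4 lower, and over all expressed genes 1.13% higher with 0.821% lower, 3.62% higher with 0.931% lower, 2.11% higher with 2.23% lower, 2.35% higher with 0.797% lower, 3.11% higher with 0.979% lower and 1.37% higher with 3.75% lower. A minimum of 0.5 or none left every 2-fold count unchanged. This was fixed in advance, since with the added 1 a gene below an FPKM of 1 in every line cannot pass 2-fold. The number of members was 94 with a minimum of 5. Median log2 ratios of the members were 0.059, 0.0061, -0.082, -0.10, -0.043 and 0.026 with that minimum and 0.00097, 0.018, 0.0085, 0.038, 0.032 and -0.067 less the median of all genes.

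The antisense and sense correlations were 0.31, 0.56, 0.48 and 0.32 by Spearman, 0.55, 0.54, 0.63 and 0.39 with a pseudocount of 0.1, and 0.22, 0.47, 0.49 and 0.28 without the 10 largest pairs. The latter choice, like that of pairs with no exon bases opposite coding exons and the alternatives for VCaP, was made after seeing the data. Shares of member starts with a peak, for the 3 ATAC-seq lists, ERG in RWPE1-ERG+mAKT, the 2 ERK2 lists, the 3 H3K27me3 lists and ERG in VCaP, with the lines in the order used for each mark in the report, were larger for wider windows. Within 5 kb they were 86.5%, 87.8%, 85.2%, 6.75%, 36%, 17.7%, 52.7%, 12.2%, 15.8% and 9.65%, and over all genes 93.3%, 92.9%, 89.7%, 6.08%, 32.5%, 15.2%, 52.8%, 15.2%, 20.5% and 8.31%. Over the start itself they were 62.1%, 59.5%, 56.9%, 0.322%, 0.965%, 1.29%, 2.89%, 1.61%, 2.89% and 0.965%, and over all genes 74.1%, 73%, 68.6%, 0.247%, 1.61%, 1.48%, 1.33%, 0.708%, 3.14% and 1.37%. Anywhere in the locus they were 92.7%, 91.8%, 90.9%, 23.4%, 55.3%, 25.2%, 69%, 28.9%, 29.8% and 16.7%, and over all genes 95.3%, 94.9%, 92.6%, 19.6%, 52.5%, 19.2%, 71.6%, 21.4%, 21.5% and 15%. With a q-value of at most 0.01 they were 76.8%, 76.8%, 74.6%, 0%, 1.29%, 0.322%, 0%, 0%, 2.57% and 1.61%, and over all genes 85.9%, 85.5%, 82%, 0.0988%, 0.585%, 0.379%, 0.00823%, 0.0165%, 2.45% and 1.68%.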

Other observations

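H3K27me3 peaks in RWPE1-ERG lay within 1 kb of the starts of 11 members, 3.54% against 4.36% of all starts, and 0 of these peaks had a q-value of at most 0.01. Among the 11 were NR2F1-AS1, PTPRG-AS1, ZEB1-AS1, LINC00200 and MAGI2-AS3. These 5 also had one in RWPE1-ERG S96E, where 18 members did, 5.79% against 8.41% of all starts. NR2F1-AS1 was the member of the 11 whose FPKM was highest in RWPE1-ERG by at least 1.5-fold over every other line (1.45 against 0.368 to 0.397), while LINC00200 was lowest there. ERG peaks in VCaP lay within 1 kb of 20 member starts, 6.43% against 4.82% of all starts. Among them were the abundant LINC00493 and the antisense genes FLVCR1-AS1, PSMA3-AS1 and USP3-AS1. STX17-AS1, opposite the syntaxin gene STX17, had an FPKM of 0.363 in RWPE1-Vector, 0.479 in RWPE1-mAKT, 0.330 in RWPE1-ERG and 1.32 in RWPE1-ERG+mAKT, the same shape as LINC00520.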
